A study of Mus musculus with 4 samples.

Results

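CpG-dense promoter regions are the accessible regions with a midpoint at most 1 kb from a protein-coding transcript start (GENCODE release 21 of the mouse annotation, build GRCm38) and with a sequence that had a GC content of at least 50% and a CpG observed/expected ratio of at least 0.6. The observed/expected ratio is the number of CG dinucleotides divided by the number that the C and G content of the sequence alone would give. Of 255864 accessible regions in the count table, 22827 lay at a promoter and 12192 of these were CpG-dense. Within the table the rule used position and sequence alone. The table itself holds regions called as peaks in either genotype, so reads limited which regions could be members. Accessibility was measured by ATAC-seq, which uses a transposase to cut and tag open DNA, in primary osteoblasts of 3-day-old C57BL/6 mice, which the study isolated from calvarial bone by collagenase digestion and plated without a sort. WT mice were compared with TCKO mice, which carried Prx1-Cre together with homozygous floxed alleles of *Tet1*, *Tet2* and *Tet3*. Prx1-Cre acts in limb and part of the cranial mesenchyme, so cells of another origin in the culture keep their *Tet* genes. The labels listed 2 samples per genotype while a protocol text spoke of 3 repeats, and the table held 1 merged column per genotype, so there was no spread between replicates, no test was possible and every difference below compares 1 merged library with another.

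Most mammalian promoters of widely expressed genes lie in CpG islands, stretches in which CG dinucleotides have been kept because they are usually unmethylated in the germline. Such islands are bound by proteins with CXXC domains, carry few fixed nucleosomes at the start and tend to be open whether or not the gene is strongly transcribed. TET1 and TET3 themselves hold CXXC domains, and TET enzymes oxidise 5-methylcytosine to 5-hydroxymethylcytosine, a step on the way to unmethylated cytosine.

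To show what CpG density looks like at the base level, the 150 bases before the transcript start are printed for members that recur below. They are the reference sequence of GRCm38, read 5′ to 3′ along the strand of the gene, with each CG in capitals, and they hold no annotated untranslated region. *Sp1* (chr15:102405993-102406142, plus strand) and *Khsrp* (chr17:57031523-57031672, minus strand) are the members with the most counts. *Tet2* (chr3:133544391-133544540, minus strand) is one of the targeted genes, and *Alpl* (chr4:137796385-137796534, minus strand) encodes the alkaline phosphatase of osteoblasts. *E030030I06Rik* (chr10:22149271-22149420, minus strand) and *Rpl39l* (chr16:10170076-10170225, plus strand) had the lowest ratios of TCKO to WT among well-covered members, and *Mrpl55* (chr11:59202336-59202485, plus strand) had one of the highest.
Sp1: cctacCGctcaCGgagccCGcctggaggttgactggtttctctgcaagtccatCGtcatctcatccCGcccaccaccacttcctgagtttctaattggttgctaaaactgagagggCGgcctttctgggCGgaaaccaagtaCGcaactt
Khsrp: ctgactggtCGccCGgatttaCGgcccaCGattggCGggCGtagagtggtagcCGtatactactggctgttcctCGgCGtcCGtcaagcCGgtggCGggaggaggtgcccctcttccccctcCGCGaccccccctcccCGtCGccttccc
Tet2: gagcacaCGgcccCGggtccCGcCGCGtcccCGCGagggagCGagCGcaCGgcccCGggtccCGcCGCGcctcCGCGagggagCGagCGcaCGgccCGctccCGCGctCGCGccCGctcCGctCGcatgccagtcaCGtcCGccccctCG
Alpl: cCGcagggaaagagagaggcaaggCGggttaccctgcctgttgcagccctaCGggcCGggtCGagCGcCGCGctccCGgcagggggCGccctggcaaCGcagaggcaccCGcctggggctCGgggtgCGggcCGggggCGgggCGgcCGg
E030030I06Rik: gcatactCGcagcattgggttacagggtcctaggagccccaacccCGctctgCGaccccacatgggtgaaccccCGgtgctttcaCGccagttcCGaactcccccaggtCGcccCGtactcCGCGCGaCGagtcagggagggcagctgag
Rpl39l: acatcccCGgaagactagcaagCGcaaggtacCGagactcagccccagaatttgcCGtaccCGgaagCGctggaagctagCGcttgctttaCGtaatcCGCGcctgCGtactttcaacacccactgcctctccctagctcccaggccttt
Mrpl55: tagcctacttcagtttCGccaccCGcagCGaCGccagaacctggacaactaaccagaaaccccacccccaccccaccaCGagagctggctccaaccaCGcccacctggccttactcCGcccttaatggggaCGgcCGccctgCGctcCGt
The *Tet2* window held 30 CpGs and a GC content of 82.7%, and the *Alpl* window held 18 CpGs and 78.7%. The heavily covered *Sp1* promoter held 8 CpGs, fewer than the 12 of *E030030I06Rik* and the 11 of both *Rpl39l* and *Mrpl55*. Of the motifs searched further on, the *Alpl* window held the SP/KLF box GGGGCGGGG and the other windows printed held none.

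The CpG-dense promoter regions were the wide and heavily covered part of the table. They made up 4.77% of all regions and their share of all counts was 22.3% in WT, of 56898657, and 20.6% in TCKO, of 34608167. The median member was 802 bp wide, held 60 CpGs, and had 818 counts in WT and 470 in TCKO. Over all regions the medians were 243 bp, 3 CpGs, 86 counts and 60 counts. Per kb of region, the median density was 979 counts in WT and 932 in TCKO after the TCKO counts were scaled to the WT total. CpG-poor promoter regions, of which there were 10635, had 576 and 595 counts per kb. Counts of members ran from 4 to 8694 in WT and from 4 to 4535 in TCKO, so the precision differs widely between members.

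Seen from the genes, an open CpG-dense start was the usual state. Of 21853 protein-coding genes, 11995 had at least 1 transcript start with a CpG-dense sequence in the 500 bp around it. At 11437 of them (95.3%) such a start was overlapped by an accessible region, against 3326 of the 9858 other genes (33.7%). Since a region entered the table when it was called in either genotype, these shares describe both genotypes together.

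The central comparison asks how accessibility at these promoters differed between TCKO and WT cells. The median log2 ratio of TCKO to WT, with 1 count added and total counts made equal, was -0.086 over the 12192 members, and their quartiles were -0.20 and 0.058. Over all regions the median was 0.064 and the quartiles were -0.30 and 0.54. The ratio was below 0 at 66.7% of members and at 45.4% of all regions. The members' median was thus 0.15 below that of all regions and 0.052 below that of the CpG-poor promoters, whose median was -0.034. The 3716 CpG-dense regions away from promoters had a median of -0.022. After removal of the trend of the ratio with read count by loess, the members' median was 0.002, against 0.006 over all regions and -0.046 at CpG-poor promoters, so the sign against CpG-poor promoters turned. Centres this close together depend on how depth is treated.

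Few members were far from equal. Only 19 members were at least 2-fold lower in TCKO (0.156%), against 4.51% of all regions, and 84 were at least 2-fold higher (0.689%), against 12.3% of all regions. At CpG-poor promoters 271 regions (2.55%) were lower and 534 (5.02%) higher. Within 1.5-fold of equal lay 96.3% of the members and 63.5% of all regions. The direction of the few calls rested on the scaling. Making total counts equal removes any difference common to all regions, so these ratios cannot show such a shift. With the genome-wide background of the peak caller as the measure of depth, 460 members were lower and 11 higher, against 19.9% and 3.91% of all regions. The members' median was then -0.69. The sources did not say whether this depth rests on the same reads as the counts. Under this scaling too the members' shares of calls (3.77% and 0.0902%) were below those of all regions. Each share of members was compared with the background as a description, since no test could be made.

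**Figure D1:**
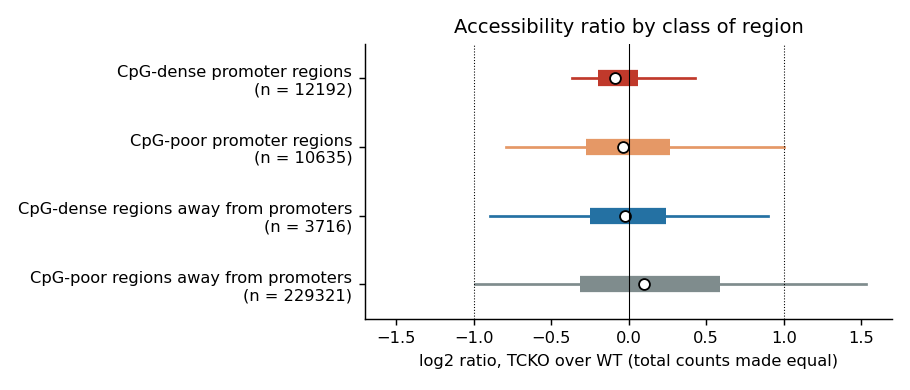
Log2 ratio of TCKO to WT accessibility in 4 classes of region, with total counts made equal. Circles are medians, thick bars the quartiles, thin lines the 5th to 95th percentiles, and dotted lines mark a 2-fold difference. CpG-dense promoter regions span -0.37 to 0.43 between the 5th and 95th percentiles, and CpG-poor regions away from promoters span -0.99 to 1.53.

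Because wide, well-covered regions have less counting error, the classes were also set side by side at equal coverage. Among regions with 1600 to 3200 counts over both genotypes, the median ratio was -0.13 at 3394 CpG-dense promoters, -0.15 at 886 CpG-poor promoters and -0.15 at 3533 CpG-poor regions away from promoters. In this bin the centres were alike, while the interquartile range was 0.17, 0.24 and 0.42, respectively. Among regions with 200 to 400 counts the same ranges were 0.43, 0.56 and 0.78. From 50 counts up, CpG-dense promoters had the narrowest range of the 4 classes in every bin of coverage except 200 to 400 counts, where CpG-dense regions away from promoters had 0.429 against 0.430. The spread of members was still wider than counting alone would give. Their standard deviation was 0.27 on the log2 scale, against 0.13 expected from counting error. The median of members moved from 0.16 among those with 50 to 100 counts to -0.16 among those with over 3200 counts, and the other classes had medians between -0.15 and -0.17 in that top bin.

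**Figure D2:**
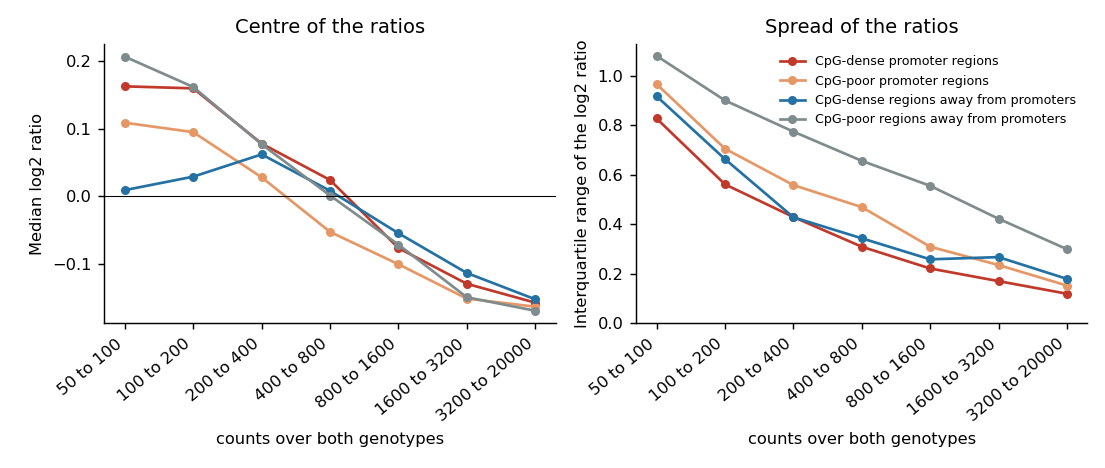
Median (left) and interquartile range (right) of the log2 ratio of TCKO to WT in bins of the counts summed over both genotypes, for 4 classes of region. In the 1600 to 3200 bin the medians of CpG-dense and CpG-poor promoters are -0.13 and -0.15, while their interquartile ranges are 0.17 and 0.24.

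Density and ratio both varied with the position relative to the start. The density of reads was highest in members centred in the 100 bp before the start, with medians of 1179 counts per kb in WT and 1100 in scaled TCKO. It was lowest in members centred 500 to 1000 bp downstream, with 598 in WT and 638 in scaled TCKO. The median ratio was -0.10 in the 100 bp on either side of the start and 0.030 at 500 to 1000 bp downstream. Without the trend with count these medians were -0.007 on either side and 0.017 downstream. Members that contained a start, 80.8% of all, had a median of -0.10, and the 2336 that contained none had a median of 0.044. The latter were small, with a median of 162 WT counts against 998, and without the trend with count the medians of the groups were -0.008 and 0.003. Members with starts on both strands, such as that shared by *Srgap2* and *Fam72a*, made up 9.61%. They had a median of 1262 WT counts, and 81.1% of them had a ratio below 0, against 65.2% of members with starts on 1 strand. Without the trend with count their medians were -0.007 and 0.004.

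**Figure D3:**
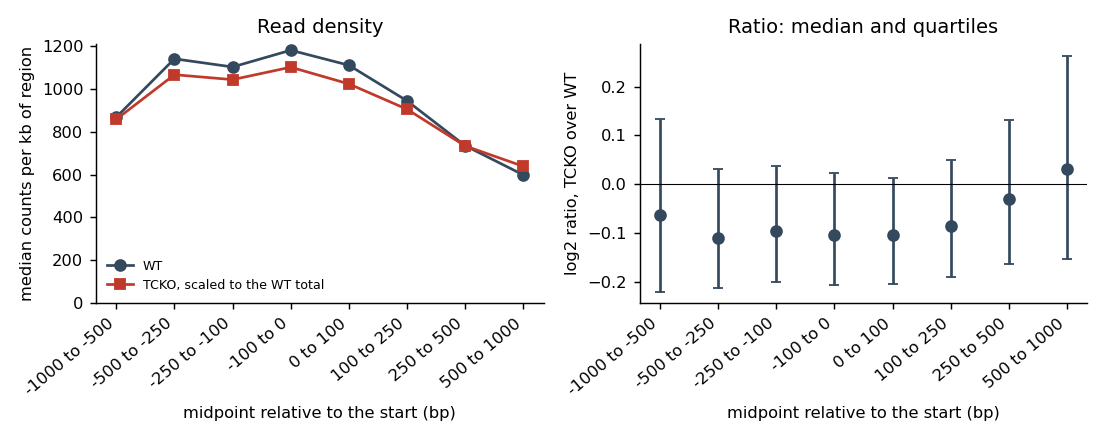
Median counts per kb (left) and log2 ratio of TCKO to WT with quartiles (right) of CpG-dense promoter regions by the distance of their midpoint from the transcript start, negative upstream. Density is highest just before the start, at 1179 counts per kb in WT. The ratio, with the trend with count not removed, is highest 500 to 1000 bp downstream, at 0.030.

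Base composition within the class was read with and without the trend with count. Members with a GC content of 50 to 55% had a median ratio of -0.14, and the 400 members with at least 75% had 0.022, but the latter held a median of only 147.5 WT counts against 814.5. Without the trend with count the medians were -0.067 and -0.038. In the bins between these the medians without the trend lay from -0.015 to 0.017. By the observed/expected ratio the medians lay between -0.070 and -0.097 in all 5 bins from 0.6 upward. Without the trend they were 0.009, 0.015, -0.001, -0.021 and -0.057, in order from the lowest bin to the highest. Just inside and just outside the limits of the rule, values were close. Promoter regions with an observed/expected ratio of 0.55 to 0.6 had a median ratio of -0.059 and those with 0.6 to 0.65 had -0.079. Those with 45 to 50% GC had -0.12 and those with 50 to 55% had -0.14. CpG-dense regions 1000 to 1500 bp from a start had 0.037, and members 500 to 1000 bp away had 0.002.

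The peak lists, which the study called separately on the merged reads of each genotype, gave a second view. A summit was called in both lists at 11043 members (90.6%), against 56.8% of all regions. Summits in WT alone were found at 956 members (7.84%, against 33.0% of all regions) and in TCKO alone at 193 (1.58%, against 10.2%). Members with a WT summit alone had median counts of 95 in WT and 54.5 in TCKO, so both genotypes had reads there. Where both lists had a summit, the median enrichment over the local background was 7.93-fold in WT and 6.98-fold in TCKO, and it was lower in TCKO at 76.9% of members, against 69.7% of all such regions. The local background was 6.13 reads in WT and 4.90 in TCKO. The WT total over regions was 1.64 times that of TCKO, but the depth implied by the caller's genome-wide background was 1.08 times. These 2 measures may not rest on the same reads, since the handling of duplicate reads was not given in the sources. At *Sp1*, 8694 WT counts in 1095 bp went with 120 piled-up reads at the WT summit. The part of depth in the longer WT list was not tested.

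Consensus sequences of factors known for CpG-island promoters were counted in the central 200 bp of each region, on both strands. The SP/KLF box GGGGCGGGG was found in 12.2% of members, 3.30% of CpG-poor promoters and 1.26% of all regions. The ETS consensus CCGGAAGT was found in 3.76% of members and 0.435% of all regions, the NRF1 consensus CGCATGCG in 1.57% and 0.147%, the YY1 consensus AAGATGGCG in 1.72% and 0.191%, and the BANP consensus CTCGCGAG in 1.12% and 0.0684%. AP-1 and Runt sites and the TATA box of core promoters showed the opposite order. The AP-1 site TGACTCA was in 1.51% of members, 10.5% of CpG-poor promoters and 18.6% of all regions. The Runt core TGTGGTT, which RUNX2 binds, was in 1.47%, 5.67% and 8.71%, and TATAAA in 1.94%, 5.68% and 8.95%, in the same order. Sequences rich in CG were used to choose the members, so motifs with CG are favoured by the rule itself. Its GC limit likewise disfavours motifs with more A and T than G and C, which include the AP-1, Runt and TATA strings.

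None of the 11 consensus sequences set apart members by their ratio. Medians of members with a motif lay between -0.14 for the CRE TGACGTCA and -0.069 for AP-1. The 569 members with the NFY site AGCCAAT had a median of 1412 WT counts, against 796 without it. Without the trend with count, members with and without a motif differed by -0.029 to 0.017, the ends being YY1 and AP-1. The USF site GTCACGTG was in 1.81% of members and differed by -0.028. No string searched contains another, and a string that is absent says nothing of the factor.

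Gene lists were read against the median of all members, since scaling of the libraries leaves a difference from that median nearly unchanged. The lowest and highest members of a list were taken among those that reached 100 counts in 1 or both genotypes. The 69 members at cytosolic ribosomal protein genes, whose products form the translating ribosome, had a median ratio of -0.18, with 58 of them below 0 and none past 2-fold. At *Rps19*, with the most counts of the list, 3515 WT and 1842 TCKO counts gave -0.22 (-0.30 to -0.13, 95% Wilson interval of the counts). *Rplp1*, a stalk protein of the large subunit, was the lowest, with 977 and 359 counts and -0.73 (-0.90 to -0.55), and *Rpl19* the highest, with 620 and 418 counts and 0.15 (-0.030 to 0.33). Replication-dependent histone genes had a median of -0.17 over 41 members. Against all members this was -0.088, and -0.039 without the trend with count, while the ribosomal list went from -0.096 to -0.080. There *Hist1h1b*, a linker histone, had 545 and 255 counts (-0.38) and *Hist3h2ba* had 189 and 181 (0.65).

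Other large groups of widely used genes lay nearer to the common median. The 43 members at replication and cell cycle genes had -0.15, the 55 at mitochondrial ribosomal protein genes -0.13, the 60 at respiratory chain and ATP synthase genes -0.11, and the 205 at *Zfp* genes -0.12. *Mcm3*, a subunit of the replicative helicase, was the lowest of its list at 1899 and 877 counts (-0.40). Proteasome, aminoacyl-tRNA synthetase and splicing factor genes had medians of -0.077, -0.085 and -0.095, within 0.010 of that of all members. Well-covered members at the edges of these lists were *Psmb1*, a core proteasome subunit, with 1069 and 448 counts (-0.54), *Srsf6*, a splicing factor, with 1391 and 641 (-0.40), and *Vars*, the valyl-tRNA synthetase, with 1164 and 811 (0.20). In the splicing list 2 members with few reads, named after their values were seen, were past 2-fold, *Srsf10* with 90 and 25 counts (-1.11) and *Srsf12* with 23 and 44 (1.61). *Zfp943* had 742 and 264 counts (-0.77) and shares its start region with *Zfp942*. Such families hold near-identical copies, and the part of unique mapping in this ratio was not tested.

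Promoters of transcription factors that act in other lineages or set body position had higher medians and few reads. The 54 members at neural and endodermal transcription factor genes had a median of 0.20, with 37 above 0. At least 2-fold higher were 3 of them (5.56%), below the 12.3% of all regions but above the 0.689% of all members. Their median counts of 125.5 in WT and 93.5 in TCKO were low. *Sox2*, a factor of neural and pluripotent cells, had 139 and 174 counts and a ratio of 1.04 (0.72 to 1.36). *Irx3* was the best-covered member, with 3168 and 1628 counts and -0.24. Of the 32 members at *Hox* genes, which set position along the body axis, 5 were at least 2-fold higher, namely members at *Hoxb1*, *Hoxb5*, *Hoxa11*, *Hoxc12* and *Hoxd11*. This share, 15.6%, was close to the 12.3% of all regions and to the 14.2% of CpG-dense promoter regions with 50 to 100 counts. It was above the 3.32% of CpG-dense promoter regions with 100 to 200 counts, the bin in which the medians of the *Hox* list fall. The *Hox* median was 0.057 at 84 WT and 66.5 TCKO counts. Without the trend with count, the difference from all members was 0.13 for the neural and endodermal list but -0.051 for *Hox* genes.

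**Figure D4:**
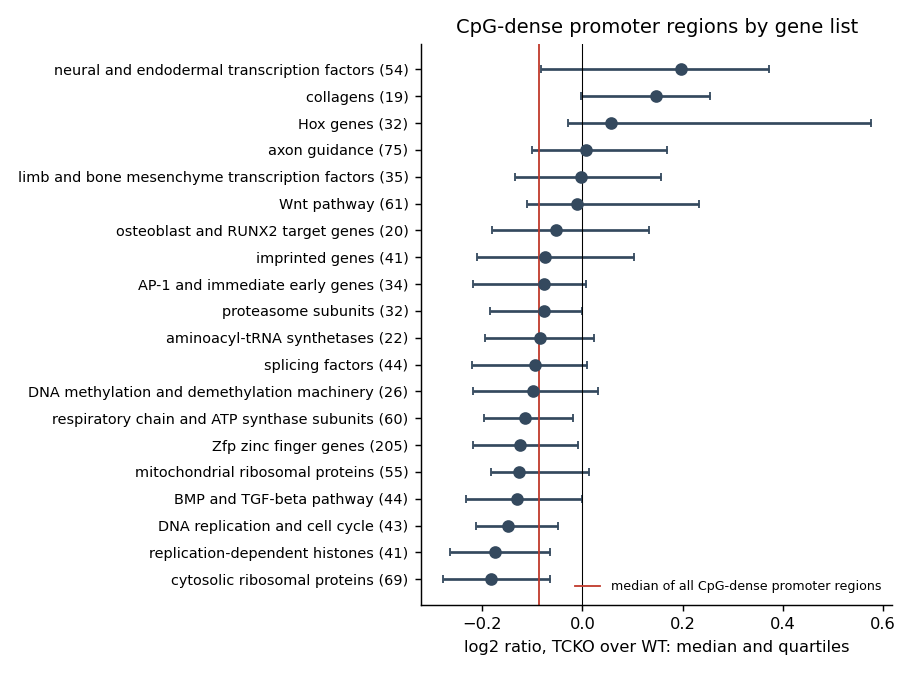
Median log2 ratio of TCKO to WT (points) with quartiles (bars) of CpG-dense promoter regions in the 20 gene lists with at least 10 members, the number of members in brackets. The red line is the median of all CpG-dense promoter regions, -0.086, and the list medians run from -0.18 for cytosolic ribosomal proteins to 0.20 for neural and endodermal transcription factors.

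Signalling and matrix genes lay between these ends. The 19 members at collagen genes had a median of 0.15, which was 0.23 above that of all members and 0.099 above it without the trend with count. *Col12a1*, a fibril-associated collagen, carried the best-covered of them, with 1774 and 971 counts (-0.15), beside a smaller one 878 bp upstream of the start with 216 and 101 (-0.38). The 61 members of the Wnt pathway had -0.010, among them *Axin1*, a scaffold of the destruction complex, with 2554 and 1434 counts (-0.12), *Tcf7l2*, a nuclear effector, with 1398 and 630 (-0.43), and *Wnt5a*, a ligand, with 103 and 96 (0.61). The 44 members of the BMP and TGF-beta pathway had -0.13. Their inhibitor *Smad6* had 3007 and 1554 counts (-0.23), the ligand subunit gene *Inhbb* 204 and 91 (-0.44) and the BMP antagonist *Grem1* 103 and 135 (1.10). The 75 members at axon guidance genes had 0.007, which was 0.093 above all members and 0.022 above them without the trend. Among those that reached 100 counts, the semaphorin receptor gene *Plxnd1* was lowest at 584 and 202 counts (-0.81) and the netrin receptor gene *Dcc* highest at 164 and 146 (0.55), while *Sema5b*, a semaphorin gene named after its values were seen, had 62 and 81 (1.09). The AP-1 and immediate early list had -0.076 over 34 members. Among its members that reached 100 counts, *Junb* was lowest at 1069 and 502 (-0.37) and *Egr2* highest at 172 and 117 (0.16), while a smaller member at *Nr4a1*, also named after its values were seen, had 66 and 83 (1.04).

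At bone genes, 14 genes were taken from the study, its 3 targeted genes and a choice of bone genes it describes, and 5 of these 14 had a member: *Tet1*, *Tet2*, *Tet3*, *Runx2* and *Alpl*. The promoter regions of *Col1a1*, *Col1a2*, *Sp7* and *Bglap* were in the table but CpG-poor. At *Tet1* (chr10:62885738-62887533) the counts were 1450 in WT and 848 in TCKO (-0.057, -0.18 to 0.066), at *Tet2* (chr3:133544058-133545251) 1541 and 863 (-0.12, -0.24 to 0.001) and at *Tet3* (chr6:83456409-83457200) 427 and 264 (0.024, -0.20 to 0.24). All 3 *Tet* promoters thus stayed open in TCKO, with intervals that reach or include equality, but these regions lie at transcript starts and give no check of the deletion. *Runx2*, which encodes the master regulator of osteoblasts, had 544 and 279 counts just downstream of its start at chr17:44735938-44736703 (-0.25, -0.45 to -0.038) and 108 and 44 in a small region 844 bp upstream (-0.57, -1.08 to -0.075). *Alpl* (chr4:137796340-137796570) had 184 and 123 (0.14, -0.19 to 0.47). Over the 20 members at osteoblast and RUNX2 target genes the median was -0.052, with 11 below 0 and none past 2-fold. The highest was *Tnfsf11*, which encodes RANKL, at 244 and 252 counts (0.76), and the best-covered was *Atf4* at 3039 and 1794 (-0.043). The 35 members at limb and bone mesenchyme transcription factors had a median of -0.002, with *Runx1* at 2137 and 1298 counts (-0.002) and *Dlx3* at 206 and 199 (0.67).

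Genes kept silent or monoallelic by DNA methylation were also read. The DNA methylation and demethylation machinery had 26 members with a median of -0.098 and none past 2-fold, and *Mbd3*, a subunit of the NuRD complex, had 3899 and 2237 counts (-0.084). Imprinted genes had 41 members with a median of -0.075. Their difference from all members was 0.011, and -0.091 without the trend. The members that reached 100 counts ran from *Rasgrf1* at 227 and 103 counts (-0.42) to *Ascl2* at 644 and 478 (0.29). Germline genes, many of which are silenced in somatic cells by promoter methylation, had only 5 members out of 29 genes listed. Among them *Stag3* had 2370 and 1288 counts in a region whose start lies beside that of *Gpc2*, and *Tex15* had 333 and 226 (0.16). *Taf7l*, named here after its values were seen, had 44 counts in WT and 4 in TCKO (-2.57, -4.16 to -1.32).

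The members with the lowest ratios, among the 11278 that reached 100 counts in 1 or both genotypes, were narrow, at 98 to 365 bp, with 1 exception. *E030030I06Rik* on chromosome 10 was the exception, a region of 1144 bp (chr10:22148439-22149582) over the start where WT had 485 counts and TCKO 80, with a ratio of -1.87 (-2.22 to -1.54), and 3 summits in the WT list but none in the TCKO list. *Rpl39l* (chr16:10170034-10170302), a testis-expressed copy of a ribosomal protein gene, had 153 and 29 counts (-1.66). *Xpnpep1* had 107 and 23 (-1.48) in a region of 98 bp, while its main promoter region 2.35 kb away held 2664 and 1468 (-0.14). *Esr1*, the oestrogen receptor gene, had 117 and 30 (-1.23), *Tcte3* 205 and 57 (-1.12), *Foxp1* 110 and 31 (-1.09), *Elovl5* 102 and 29 (-1.08) and *Plbd1* 138 and 40 (-1.06). *Tcte3* lies next to *Gm3448*, a near-identical copy, and the part of unique mapping in its ratio was not tested. Of the 19 members at least 2-fold lower, 17 had a summit in the WT list alone, which held for 33.0% of all regions. The lists were called on the same reads as the ratios, so this is no separate support.

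The lowest region had company on chromosome 10. *H60b* and *Raet1e*, which encode ligands of the natural killer cell receptor NKG2D, lie 124 kb and 9.48 kb from it. They are described because of their position, after their values were seen. The *Raet1e* member had 291 and 93 counts (-0.92, -1.26 to -0.59). At *H60b* one member had 81 and 6 counts (-2.92, -4.20 to -1.87) and the other 48 and 22 (-0.40, -1.13 to 0.31). The other members in the same 1 Mb on either side had ratios of -0.33 at *Slc2a12* (-0.50 to -0.15), -0.099 at *Sgk1*, -0.001 at *Tbpl1*, 0.22 at *Hbs1l* and 0.28 at *Myb*. Over all 274 other regions within that distance the median ratio was 0.17, with 24 at least 2-fold lower (8.76%, against 4.51% of all regions) and 50 at least 2-fold higher (18.2%, against 12.3%).

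The highest ratio was at *Fcgr3*, which encodes a low-affinity Fc gamma receptor of myeloid and natural killer cells, with 19 counts in WT and 140 in TCKO (3.53, 2.91 to 4.28) in a region centred 462 bp upstream of the start (chr1:171065299-171065496). A neighbouring member 0.514 kb away, nearest to the same gene, had 354 and 258 counts (0.26). *Mrpl55*, a mitochondrial ribosomal protein gene, had 72 and 229 counts over its start at chr11:59202104-59202635 (2.37, 2.01 to 2.77), with summits in both lists. The remaining 6 were *Hoxb5* at 81 and 122 (1.30), the neurotrophin gene *Bdnf* at 79 and 116 (1.26), *Crmp1* at 138 and 188 (1.16), *L3mbtl4* at 82 and 111 (1.14), *Acsf3* at 78 and 104 (1.12) and *Grem1* at 103 and 135 (1.10). Apart from *Fcgr3* and *Mrpl55*, all of these had intervals that cross a 2-fold difference. Of the 84 members at least 2-fold higher, 73 had fewer than 100 counts in either genotype, and their medians were 37 counts in WT and 54.5 in TCKO. A summit in the TCKO list alone was found at 69 of the 84, and at 10.2% of all regions. Here too the list rests on the same reads as the ratio.

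**Figure D5:**
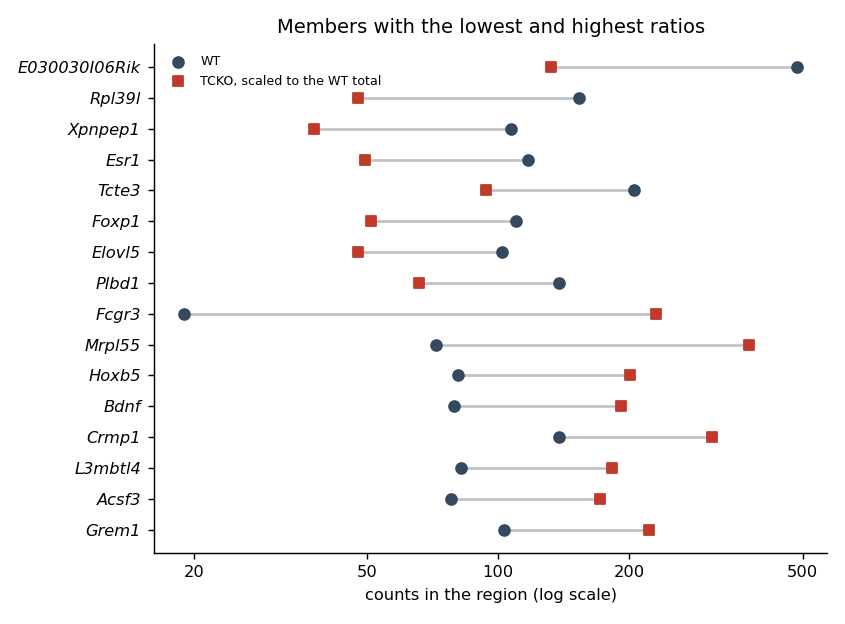
Counts in WT (circles) and TCKO scaled to the WT total (squares), on a log scale, in the 8 CpG-dense promoter regions with the lowest and the 8 with the highest ratio among those that reached 100 counts in 1 or both genotypes. *E030030I06Rik* lies at 485 against 132 and *Fcgr3* at 19 against 230 counts.

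At the other end of coverage, the 5 members with the most counts differed little once total counts were made equal. *Sp1*, which encodes the zinc finger factor that binds GC boxes, had 8694 and 4535 counts (-0.22, -0.27 to -0.17). *Khsrp*, an RNA-binding protein gene, had 8089 and 4229 (-0.22), *Srgap2* 7478 and 4091 (-0.15), *Ppp2r3d* 7477 and 3744 (-0.28) and the kinase gene *Gsk3b* 6930 and 3869 (-0.12). Under this scaling none of the 5 was near a 1.5-fold difference. With the peak caller's background as the measure of depth, their ratios ran from -0.73 at *Gsk3b* to -0.89 at *Ppp2r3d*. Across all members the counting interval lay wholly below 0 at 4206 (34.5%) and wholly above 0 at 1197 (9.82%), against 18.9% and 29.5% of all regions, shares that follow the scaling.

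Chromosome X stood below every autosome. Its 316 members had a median ratio of -0.16, and the medians of the 19 autosomes ran from -0.10 to -0.065. The difference from all autosomal members was -0.073, and -0.12 without the trend with count. CpG-poor promoter regions on X also stood below every autosome, with a median of -0.091 against -0.057 to 0.023. So did all regions of X together, with 0.014 against 0.033 to 0.104. Regions of X away from promoters had a median of 0.064 against 0.094 on autosomes, a difference of -0.030. Chromosome Y had no member, and its 27 regions together held 5753 WT and 3970 TCKO counts, a ratio of 0.18 after scaling. The sex of the animals was not given in the sources used here, and its part in the X values was not tested.

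Many genes had more than 1 member. The 12192 members belonged to 10341 nearest genes, of which 1582 had at least 2 and the most had 7. Between the most and the second most covered member of a gene, the median difference in ratio regardless of sign was 0.24. The counting intervals of the pair lay apart at 253 genes (16.0%). The weaker member was higher by a median of 0.10, which is the direction of the trend with count.

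Markers of other cell types were examined because the cultures were not sorted. All 9 osteoblast markers had a promoter region, 3 of them CpG-dense, and their counts summed to 8123 in WT and 4637 in TCKO (-0.092). Of 7 macrophage and osteoclast markers 5 had a region, none CpG-dense, with 731 and 582 counts (0.39), and *Ptprc* and *Tyrobp* had none. After scaling, *Csf1r* (90 and 110 counts), *Cd68* (201 and 164) and *Acp5* (297 and 238) were higher in TCKO. *Spi1* (107 and 49) and *Adgre1* (36 and 21) were lower. The part of macrophages and osteoclasts in the ratio at *Fcgr3*, which those cells use, was not tested. Endothelial markers had regions at 4 of 6 genes (1539 and 917 counts, -0.030), and skeletal muscle markers at 1 of 6, *Des* (105 and 81). All 4 chondrocyte markers had one (3305 and 1960 counts, -0.037), with a CpG-dense member at *Sox9*, the chondrocyte master regulator, of 1620 and 950 (-0.053). Of 4 adipocyte markers 3 had one (1106 and 633, -0.088), but not *Adipoq*. In bulk samples, fewer cells of a type and less accessibility per cell cannot be told apart.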

How the data were processed

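ATAC-seq of primary osteoblasts was analysed from 3 deposited files. According to its methods, the study aligned reads end to end with STAR 2.7.0e (version per the submitters' processing notes) to GRCm38, kept uniquely mapping reads, merged replicates and called peaks with MACS2. Removal of duplicate or mitochondrial reads and a transposase shift were not given in the sources used here. The authors deposited raw read counts per region, 1 merged column per genotype, counted with bedtools multicov per the file headers. Their deposited peak lists hold a fold enrichment, a ratio to the local background, the −log10 of the p-value of each summit and, as a score, the −log10 of its q-value.

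The members, gene lists and motifs were chosen with earlier results of these data known. The ratio was log2 of scaled TCKO counts plus 1 over WT counts plus 1, scaled by total counts, 56898657 in WT and 34608167 in TCKO, and a region was called past a fold of 2. Wilson intervals (95%) were taken on the TCKO share of the counts, cover counting error only, and assume independent reads. As replicates were merged, no p-value was computed. Named members were the 8 lowest and 8 highest ratios among members that reached 100 counts in 1 or both genotypes, the 5 with most counts, genes of the study, and up to 4 for each list: the most covered, the lowest, the highest and that nearest the list median. 1 member that this rule names is not reported here. Motifs were searched on both strands in the central 200 bp. Alternatives used TMM (edgeR 4.0.16), size factors (DESeq2 1.42.0), loess (statsmodels 0.14.6, span 0.3) over all regions, the medians of 20 GC bins, and the depth implied by the caller's genome-wide background. Pileups and backgrounds were solved from the fold and p-value at each summit. The steps were tested on simulated data. Python 3.11.15, pandas 2.3.3, numpy 2.4.6 and pysam 0.24.0 were used.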

Additional observations from a re-analysis of the deposited data

How the results depend on the processing

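No paired analysis was possible because each genotype had a single merged column of counts, and leaving out a replicate could not be run for the same reason. Without scaling, 1365 members were lower and 8 higher, the median was -0.80 and lay -0.16 from that of all regions. With the peak caller's background these were 460 (3.77%, against 19.9% of all regions), 11 (0.0902%, against 3.91%), -0.69 and -0.16. Shares of all regions were computed under this scaling and with total counts alone. Counts of calls under the other settings therefore have no background and are not read as a result about the members. TMM and DESeq2 size factors moved the median to -0.16 and -0.15. With the members' median set to 0.000, 12 were lower. Loess gave 32 lower and 47 higher, a median of 0.002, differences of -0.004 from all regions and 0.048 from CpG-poor promoters, which reversed, and an interquartile range of 0.23. Removal of GC medians gave a median of -0.052 and differences of -0.052 and -0.002. With 10 counts added 10 were lower, 51 higher, and the difference from all regions was -0.14. Starts within 500 bp gave a median of -0.093, differences of -0.16 and -0.034 and a range of 0.24, and within 2000 bp -0.082, -0.067 from CpG-poor promoters and 0.26. Stricter limits of 0.75 and 55% GC gave 10, 46, -0.032 from CpG-poor promoters and a range of 0.25. With the starts of every transcript of a protein-coding gene, chosen after seeing the data, the latter difference was -0.070. Folds of 1.5 and 3 gave 120 and 6 lower and 326 and 11 higher members, and intervals wholly past 2-fold 4 and 9. The count of members with summits in both lists stayed within 1.5 times under stricter q-values, at 9723 and 8275. The causes were not tested.

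Relative to all members, 5 of 80 list medians turned sign, under alternatives chosen after seeing the data: under loess DNA methylation machinery (0.017), *Hox* genes (-0.051) and imprinted genes (-0.091), and without GC medians aminoacyl-tRNA synthetases (-0.002) and imprinted genes (-0.013). The 16 members with the lowest and highest ratios kept their sign in all 128 alternatives, and in 109 they stayed past 2-fold. Depth limits the members under 100 counts, which make up most of the calls.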
